A study of Mus musculus with 8 samples.

Results

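The genes examined were 10 genes for acute phase proteins, secreted mainly by hepatocytes: Saa1, Saa2, Hp, Hpx, Orm1, Orm2, Lcn2, Fgb, Itih4 and Apcs. They were chosen by name, as the rows of the liver count table whose Ensembl identifiers map to these symbols, and were 10 of the 46078 genes in the table. All 10 were among the 14654 genes with enough reads to be tested. RNA-seq had been carried out on livers of 5 wild-type (WT) and 3 Rbfox2 KO mice. Transcript levels could so be compared in livers with and without targeting of Rbfox2 in hepatocytes. The gene encodes RBFOX2, an RNA-binding protein that controls splicing. Every mouse had been given water supplemented with 30% (w/v) fructose for 22 weeks, a diet that started at 8 weeks of age, and livers were taken in the fasted state. According to the study's methods, mice were male unless stated otherwise. By those methods, both groups carried LoxP sites on both Rbfox2 alleles, and the groups differed in the Albumin-cre transgene: WT mice lacked it and KO mice had it. The Albumin promoter is active in hepatocytes, so other cells of a KO liver were not targeted, and no Cre-only controls were analysed here. The strains came from the Jackson Laboratory, C57BL6/J among them. No mice on a control diet were analysed here, so the levels below describe fructose-fed livers only.

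The acute phase response is the change in plasma proteins that follows infection or tissue injury. Interleukin 6 signals through gp130 and STAT3 in hepatocytes, interleukin 1 and tumour necrosis factor signal through NF-kB, and C/EBP proteins act with both, so that the liver raises the output of some proteins (positive acute phase proteins) and lowers that of others, such as albumin. In mice, serum amyloid A (Saa1, Saa2) and serum amyloid P (Apcs) are the classical markers, while haptoglobin, hemopexin, fibrinogen and orosomucoid are also made in quantity by resting liver.

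Sequencing depth was 24829693 to 37823155 counts per library with no difference between genotypes detected (exact two-sided permutation test, p = 0.839, n = 5 and 3). Levels are given as CPM, the read count relative to a library size corrected with TMM factors (edgeR), and 3 counts, taken as the smallest measurable level, equalled 0.0839 to 0.118 CPM. Rbfox2 was at 14.0 to 23.2 CPM in WT and 6.84 to 12.4 CPM in Rbfox2 KO livers, with no overlap (log2 fold change -1.03 ± 0.21 SE, edgeR adjusted p = 0.328; exact two-sided permutation p = 0.0179, n = 5 and 3, the smallest this design allows). Rbfox2 transcript was thus lower in KO livers but still present. By western blot, the study could not detect RBFOX2 protein in livers of its knockout mice. All 7 hepatocyte markers were expressed, with summed levels of 71936 to 77678 CPM in WT, against a KO range of 60522 to 82201 CPM. Libraries that stood apart were Rbfox2 KO 1, with 463 CPM of 12 pancreatic exocrine genes against 4.78 to 17.2 CPM in the others and the lowest share of Mup transcripts (6.54%, up to 35.3% elsewhere), and WT 1, with those 17.2 CPM. Skeletal muscle transcripts (10 genes) reached 292 CPM in WT 4, 376 CPM in WT 5 and 245 CPM in Rbfox2 KO 1, and were at 1.42 to 54.0 CPM in the rest. Results that rest on Rbfox2 KO 1 are therefore given with and without it. In bulk tissue, fewer cells of a type and less RNA per cell cannot be told apart.

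The regions upstream of 5 genes are shown: Saa1, Saa2 and Orm2, the members that varied most between WT mice, and Fgb and Apcs, which held the most motif matches. RefSeq windows in GRCm38.p6 were found for 8 of the 10 members, and the 250 bases before the RefSeq start were searched on both strands for 4 short motifs. Each sequence reads 5′ to 3′ on the strand of its gene, with matches in capitals. Saa1 lies at chr7:46742981-46743230 (minus strand) and Saa2 at chr7:46751583-46751789 (plus strand), where the 43 bases nearest the RefSeq start are left out because they lie inside the annotated gene. Orm2 lies at chr4:63362199-63362448 (plus), Fgb at chr3:83049864-83050113 (minus) and Apcs at chr1:172895055-172895304 (minus).
Saa1: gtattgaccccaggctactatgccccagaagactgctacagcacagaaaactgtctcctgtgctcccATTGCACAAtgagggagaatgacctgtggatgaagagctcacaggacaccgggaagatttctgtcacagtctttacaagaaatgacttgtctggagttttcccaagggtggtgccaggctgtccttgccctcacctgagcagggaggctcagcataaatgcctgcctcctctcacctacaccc
Saa2: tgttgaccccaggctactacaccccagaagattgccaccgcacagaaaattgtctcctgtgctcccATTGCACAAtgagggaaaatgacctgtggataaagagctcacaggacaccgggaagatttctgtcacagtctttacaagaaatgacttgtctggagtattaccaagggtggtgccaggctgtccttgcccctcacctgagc
Orm2: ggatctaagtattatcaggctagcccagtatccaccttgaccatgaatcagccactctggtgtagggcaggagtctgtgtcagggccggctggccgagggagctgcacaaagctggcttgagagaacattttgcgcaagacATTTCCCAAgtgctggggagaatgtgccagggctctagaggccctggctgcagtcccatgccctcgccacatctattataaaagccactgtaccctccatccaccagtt
Fgb: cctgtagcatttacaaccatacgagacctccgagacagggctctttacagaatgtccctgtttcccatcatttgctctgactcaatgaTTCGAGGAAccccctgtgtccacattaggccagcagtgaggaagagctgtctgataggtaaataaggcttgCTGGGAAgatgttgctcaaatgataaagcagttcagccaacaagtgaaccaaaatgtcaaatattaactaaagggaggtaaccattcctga
Apcs: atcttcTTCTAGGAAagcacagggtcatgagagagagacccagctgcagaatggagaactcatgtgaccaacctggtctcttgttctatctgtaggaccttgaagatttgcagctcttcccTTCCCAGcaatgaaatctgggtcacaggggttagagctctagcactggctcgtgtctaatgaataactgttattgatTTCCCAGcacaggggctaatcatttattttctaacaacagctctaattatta
In Saa1, Saa2 and Orm2 the capitals mark a C/EBP motif, TTNNGNAAT read on the opposite strand, which was present in 10.32% of all 27025 windows of this length. In Fgb and Apcs the first capitals mark a STAT motif, TTCNNNGAA (7.179% of windows, and also found in Itih4). The next capitals in Fgb, and both further runs in Apcs, mark the interleukin 6 response element CTGGGAA on one strand or the other (9.077% of windows). The motifs did not overlap one another in these windows. A 10-letter NF-kB motif, held by 1.399% of windows, was not matched in the 8 members. The windows of Hpx and Lcn2 held none of the 4 motifs. All 250 bases of the Lcn2 window, and 21 bases of that of Hpx, lay inside the annotated gene. The Saa1 and Saa2 windows had 238 identical bases over 251 aligned columns (94.82%), and the next closest pair of members, Lcn2 and Saa1, had 54.78%. A match is a string of letters and not a measured binding site.

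In WT livers the member transcripts spanned a wide range of abundance. Compared per kilobase of the principal transcript, the order of mean WT levels was Hp (1848 ± 247 CPM per kilobase, SD, n = 5), Hpx (1472 ± 76.7), Fgb (609 ± 70.7), Orm1 (608 ± 144), Itih4 (303 ± 49.1), Saa1 (106 ± 58.1), Apcs (56.5 ± 5.14), Saa2 (29.8 ± 11.6), Orm2 (17.0 ± 6.05) and Lcn2 (4.19 ± 1.02). The ranges of 5 mice overlapped for neighbours Fgb and Orm1, Saa1 and Apcs, and Saa2 and Orm2, and did not overlap for the other neighbours. The order of Saa1 and Apcs, and of Saa2 and Orm2, turned round when the length of all annotated exons was used (26.1 for Saa1 and 7.71 for Saa2). With that length the WT ranges of Hp (1335 to 1795.5) and Hpx (1351 to 1546) overlapped too, as did those of Saa1 and Orm2, and those of Saa1 and Apcs did not. Together the 10 genes took 0.734% to 1.30% of all counts in a library, with the highest share in Rbfox2 KO 1.

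The members also differed in how much they varied from mouse to mouse. Over the 5 WT livers the SD of log2 CPM was 0.94 for Saa1, 0.65 for Saa2 and 0.60 for Orm2, or percentiles 97.5, 94.3 and 92.9 of all tested genes, whose median was 0.22. At the other end, Hpx, the heme-binding protein of plasma, had an SD of 0.08 (percentile 5.34) and Apcs one of 0.13 (percentile 22.3). Hp, Fgb and Itih4 were near the middle, with SDs of 0.19, 0.18 and 0.24, while Orm1 and Lcn2 both had 0.35. These 5 mice had the same genotype, diet and duration of feeding.

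**Figure D1:**
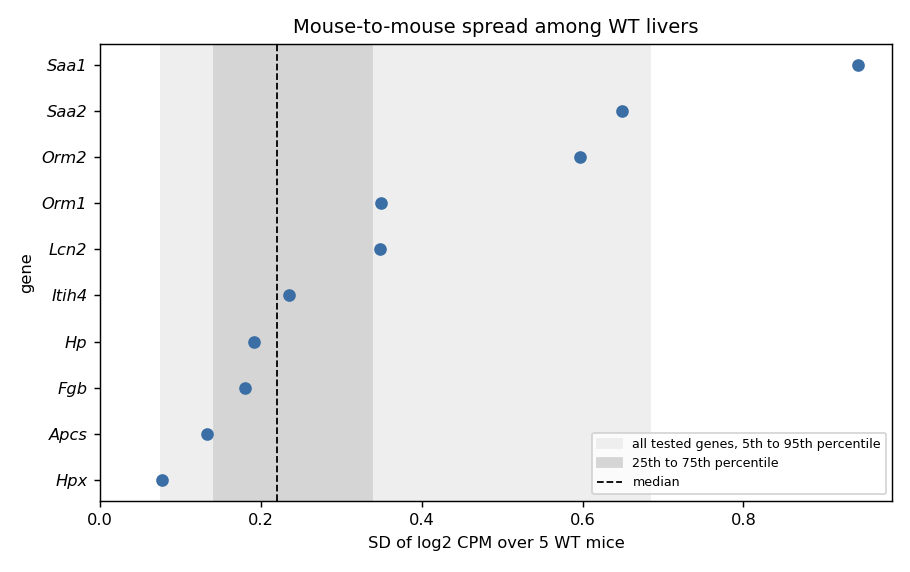
Mouse-to-mouse spread of each acute phase gene, as the SD of log2 CPM over 5 WT livers (x axis), with bands for the 25th to 75th and 5th to 95th percentile of 14654 tested genes. Saa1 lies at 0.94, beyond the wider band, and Hpx lies at 0.08, close to its lower edge.

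Serum amyloid A proteins are carried on high-density lipoprotein and are the most inducible of the mouse acute phase proteins. Saa1 (ENSMUSG00000074115, chromosome 7, 46740497 to 46742980, minus strand) had 38.9, 77.5, 112, 74.1 and 21.5 CPM in WT 1 to 5 and 132, 40.1 and 204 CPM in Rbfox2 KO 1 to 3. The groups overlapped, since Rbfox2 KO 2 lay below 3 WT livers while Rbfox2 KO 1 and 3 lay above all 5. The log2 fold change of Saa1 (Rbfox2 KO against WT) was 0.96 ± 0.64 SE (95% interval -0.54 to 2.45, edgeR adjusted p = 0.99997). Saa2 (ENSMUSG00000057465, chromosome 7, 46751790 to 46754313, plus strand) had 16.8, 17.97, 25.9, 27.5 and 8.87 CPM in WT livers and 58.1, 6.76 and 129 CPM in Rbfox2 KO. Here the lowest of the 8 libraries, Rbfox2 KO 2, and the highest pair, Rbfox2 KO 1 and 3, were all KO livers, a 19.1-fold span. The log2 fold change of Saa2 was 1.74 ± 0.79 SE (95% interval -0.15 to 3.63, edgeR adjusted p = 0.99997). Both estimates depended on single KO livers. Without Rbfox2 KO 3 the log2 fold change was 0.41 for Saa1 and 0.75 for Saa2, and without Rbfox2 KO 2 it was 1.38 and 2.27. Leaving out Rbfox2 KO 1 gave 0.92 and 1.81. With sample quality weights in limma-voom, which gave Rbfox2 KO 2 a weight of 1.68 against 0.496 and 0.713 for Rbfox2 KO 1 and 3, the log2 fold change was 0.09 for Saa1 and 0.02 for Saa2.

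The Saa1 and Saa2 transcripts share sequence, so their separate counts are uncertain. In the longest annotated transcripts (2446 and 2443 bases), 32.1% of the 50-base words of Saa1 occurred in another gene, mostly Saa2. Of those of Saa2, 31.8% occurred in Saa1. The principal transcripts are shorter, at 609 and 652 bases, and their shared part was not computed. With the counts of both merged before the fit, the level was 84.2 CPM in WT livers and 190 CPM in Rbfox2 KO on average, with a log2 fold change of 1.18 ± 0.66 SE (edgeR adjusted p = 0.99996). The ratio of Saa2 to Saa1 CPM was 0.232 to 0.431 in WT and 0.439, 0.168 and 0.632 in Rbfox2 KO 1 to 3, so the extremes again were KO livers.

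Orosomucoids are lipocalin-fold carriers of lipids and drugs in plasma. Orm1 (ENSMUSG00000039196, chromosome 4, 63344560 to 63348163, plus strand) had 479, 604, 349, 554 and 371 CPM in WT livers and 566, 407 and 509 CPM in Rbfox2 KO. The KO values all fell inside the WT range, and the log2 fold change was 0.07 ± 0.20 SE (95% interval -0.37 to 0.50). Its neighbour Orm2 (ENSMUSG00000061540, chromosome 4, 63362449 to 63365878, plus strand) was far lower, at 12.7, 15.0, 19.2, 12.7 and 6.27 CPM in WT livers and 19.2, 10.9 and 22.2 CPM in Rbfox2 KO. Rbfox2 KO 3 was the highest and WT 5 the lowest, with the groups overlapping (0.41 ± 0.34 SE, 95% interval -0.36 to 1.17, edgeR adjusted p = 0.99997). The Orm2 value was 0.19 without Rbfox2 KO 3, 0.65 without Rbfox2 KO 2, 0.23 without WT 5, 0.13 with quality weights and 0.12 with a replicate block. Orm2 amounted to 1.69% to 5.51% of Orm1 in a library. Since 20.4% of the 50-base words of Orm1 and 22.7% of those of Orm2 were shared, the split of reads between them is uncertain, above all for Orm2, the lower of the pair. The merged pair had a log2 fold change of 0.08 ± 0.19 SE.

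**Figure D2:**
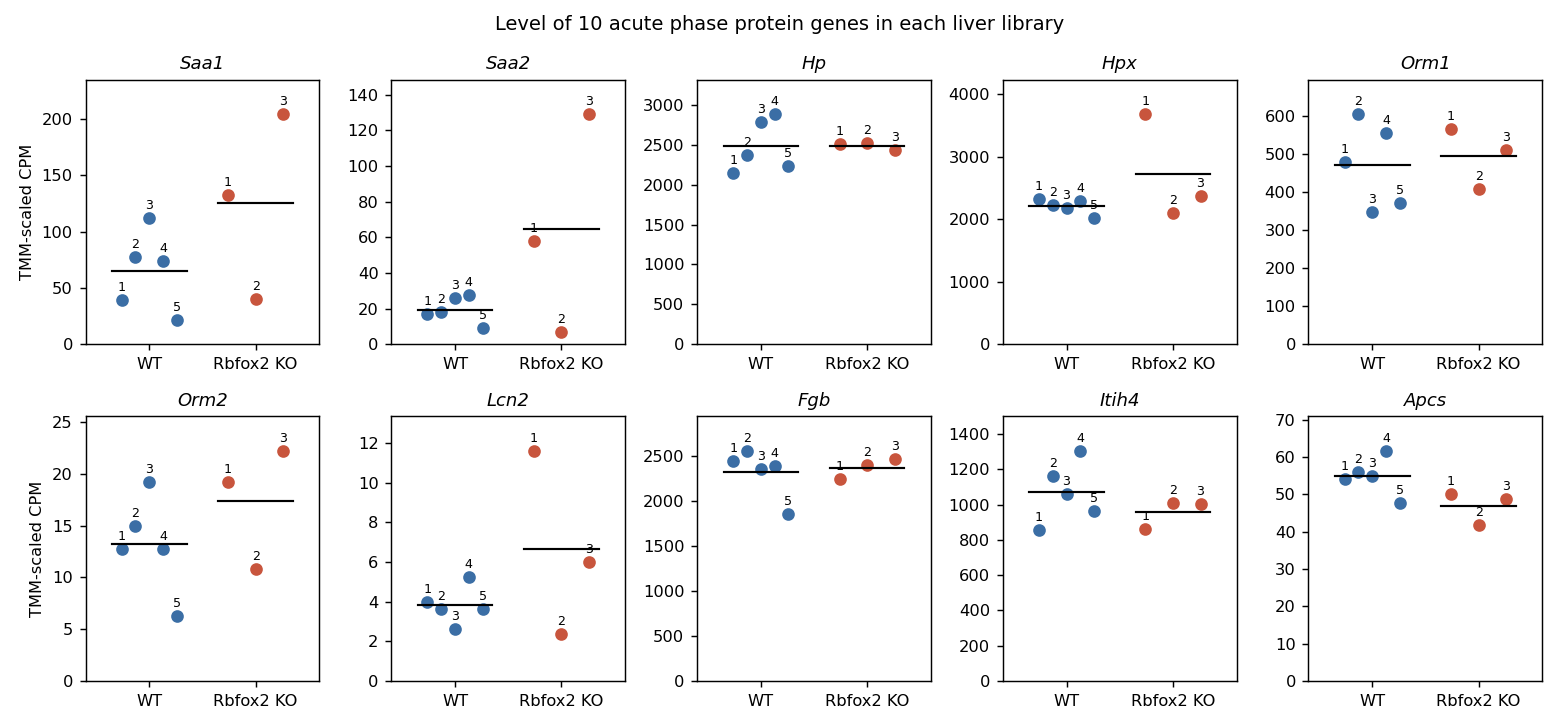
CPM (y axis, from 0, 1 panel per gene) of the 10 acute phase genes in each WT (blue) and Rbfox2 KO (red) liver, with the replicate number beside each point and a line at the group mean. Rbfox2 KO 2 sits low and Rbfox2 KO 3 high for Saa1 (40.1 and 204 CPM) and Saa2 (6.76 and 129 CPM), whereas Hp stays between 2144 and 2884 CPM in all 8 livers.

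Haptoglobin binds free haemoglobin and hemopexin binds free heme, and both complexes are cleared from plasma. Hp (ENSMUSG00000031722, chromosome 8, 109575128 to 109579172, minus strand) had 2144, 2374, 2791, 2884 and 2237 CPM in WT livers and 2509, 2518 and 2435 CPM in Rbfox2 KO. The 3 KO livers lay together inside the WT range, and the log2 fold change was 0.00 ± 0.14 SE with a 95% interval of -0.32 to 0.32. Hpx (ENSMUSG00000030895, chromosome 7, 105591613 to 105600137, minus strand) had 2318, 2224, 2175, 2287 and 2026 CPM in WT livers and 3679, 2099.8 and 2372 CPM in Rbfox2 KO. Only Rbfox2 KO 1 was far from the rest. For Hpx the log2 fold change was 0.30 ± 0.18 SE (95% interval -0.10 to 0.70, edgeR adjusted p = 0.99997), and it was 0.01 without Rbfox2 KO 1, 0.45 without Rbfox2 KO 2, 0.10 with quality weights and 0.47 with library totals. In that library pancreatic, adipocyte (36.3 CPM against 5.86 to 10.2 CPM) and erythroid transcripts (2107 CPM against 741 to 1459 CPM) were also the highest of the 8, and Cyp2e1, a pericentral hepatocyte enzyme, was at 2324 CPM against 5164 to 6231 CPM. Of the other hepatocyte markers, Alb, Apob and Serpina1c were also lowest in Rbfox2 KO 1. Cps1 (1312 CPM) and Hnf4a (334 CPM) lay inside their WT ranges there, and Tat (861 CPM) lay above all WT livers. The part of these transcripts in the Hpx value was not tested.

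Lipocalin 2 withholds iron from bacteria by binding their siderophores, and is made by neutrophils as well as by stressed hepatocytes. Lcn2 (ENSMUSG00000026822, chromosome 2, 32384633 to 32388252, minus strand) was the least abundant member, at 3.99, 3.65, 2.64, 5.24 and 3.64 CPM in WT livers and 11.6, 2.36 and 6.01 CPM in Rbfox2 KO. The highest 2 and the lowest of the 8 libraries were KO livers. For Lcn2 the log2 fold change was 0.80 ± 0.42 SE (95% interval -0.14 to 1.75, edgeR adjusted p = 0.99997), 0.14 without Rbfox2 KO 1, 1.199 without Rbfox2 KO 2 and 0.07 with quality weights. Of 10 neutrophil markers, 9 reached 3 counts in some library, and their summed level was 3.01 to 4.36 CPM in WT livers and 7.56, 3.22 and 3.41 CPM in Rbfox2 KO 1 to 3. In Rbfox2 KO 1, S100a8 was at 1.44 CPM (0.350 to 0.503 CPM elsewhere), S100a9 at 1.41 CPM (0.245 to 0.739 CPM elsewhere), Ngp at 0.471 CPM (at most 0.0296 CPM elsewhere) and Camp at 0.125 CPM (at most 0.0280 CPM elsewhere). Camp had 4 counts in Rbfox2 KO 1. The defining markers Ly6g and Mpo were at 0 in most libraries, Rbfox2 KO 1 having 0.0314 CPM of each. Mpo was highest in WT 3 (0.105 CPM) and Ly6g in WT 2 (0.0323 CPM). Cxcr2 was highest in WT 1 (2.11 CPM, against 1.54 CPM in Rbfox2 KO 1). The remaining markers, Ltf, Retnlg and Csf3r, were highest in Rbfox2 KO 1. The part of neutrophils in the Lcn2 value of Rbfox2 KO 1 was not tested.

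Fgb encodes the beta chain of fibrinogen, the clotting protein, Itih4 a heavy chain related to those of inter-alpha-trypsin inhibitors, and Apcs the pentraxin serum amyloid P component. Fgb (ENSMUSG00000033831, chromosome 3, 83040141 to 83049863, minus strand) had 2442, 2556, 2355, 2388 and 1857 CPM in WT livers and 2245, 2396 and 2465 CPM in Rbfox2 KO. Apart from the low WT 5, all 7 livers lay within a narrow band, and the log2 fold change was 0.03 ± 0.14 SE (95% interval -0.28 to 0.34). Itih4 (ENSMUSG00000021922, chromosome 14, 30886476 to 30902353, plus strand) had 855, 1161, 1061, 1304 and 966 CPM in WT livers and 864, 1008 and 1004 CPM in Rbfox2 KO. Every KO value was inside the WT range (-0.16 ± 0.15 SE, 95% interval -0.49 to 0.18). Apcs (ENSMUSG00000026542, chromosome 1, 172893961 to 172895041, minus strand) had 54.1, 55.9, 54.9, 61.6 and 47.6 CPM in WT livers and 49.98, 41.8 and 48.6 CPM in Rbfox2 KO. The KO livers were below WT 1 to 4 and overlapped only with WT 5. The log2 fold change of Apcs was -0.23 ± 0.11 SE (95% interval -0.46 to 0.01, edgeR adjusted p = 0.99997), -0.34 with quality weights and -0.10 with library totals. With 1 library left out at a time, it ran from -0.28 without Rbfox2 KO 1 to -0.15 without Rbfox2 KO 2.

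Across the 10 members, none passed an edgeR adjusted p of 0.05, as for all genes (0% of 14654), and none had an unadjusted p under 0.05, against 4.74% of all genes. DESeq2 called 0.403% of all genes and none of the members, and 3 members (Saa2, Lcn2 and Apcs) had an unadjusted p under 0.05 there, against 4.93% of all genes. The groups overlapped for each of the 10, while 3.71% of all genes had groups that did not overlap (1.89% with all KO livers higher). The log2 fold change was negative for Itih4 and Apcs and positive for the other 8, which include Hp, at 0.00 and below 0 with DESeq2 size factors. The median was 0.18, beside 0.00 over all tested genes. The members' median was 0.04 without Rbfox2 KO 1 and 0.01 with quality weights. Scaling by library totals gave 0.34, but there the median of all genes was itself 0.12, so 0.22 above it. The intervals were narrowest for Apcs, followed by Fgb and Hp, and widest for the Saa genes. A change of Hp or Fgb beyond about 0.34 in either direction lay outside the 95% interval. For Saa2, values from a slight decrease to a 3.63 log2 increase lay inside.

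**Figure D3:**
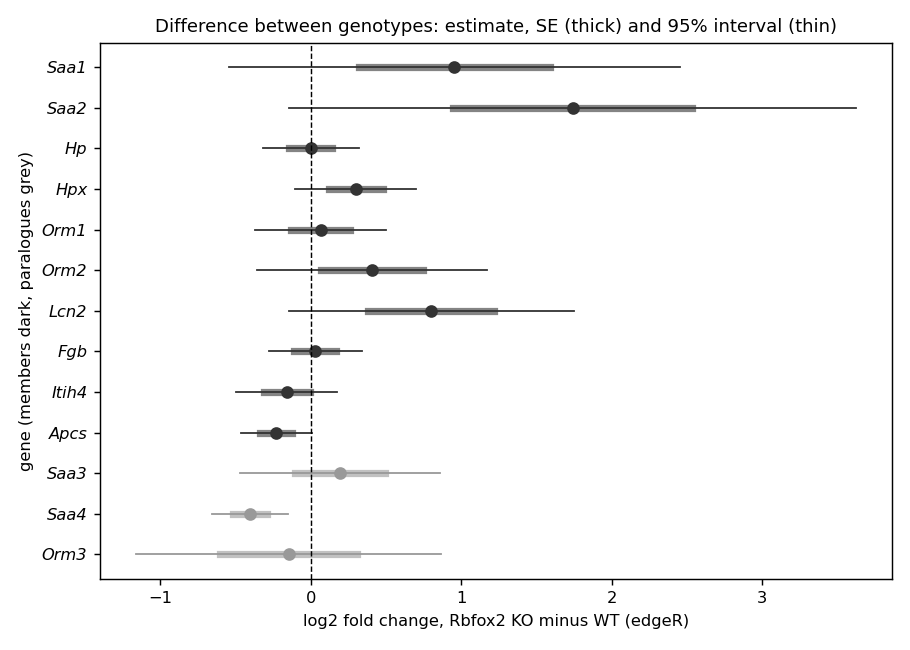
Log2 fold change of Rbfox2 KO against WT (x axis) for the 10 members (dark) and 3 paralogues (grey), with SE (thick bars) and 95% interval (thin bars) from edgeR. The member intervals all include 0, from Hp at 0.00 to Saa2 at 1.74, and that of Saa4 lies below 0, at -0.66 to -0.15 before adjustment.

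The paralogues of the Saa and Orm clusters did not follow one pattern. Saa4, a constitutively made serum amyloid A, had 128, 174, 143, 138 and 136 CPM in WT livers and 104, 107 and 115 CPM in Rbfox2 KO. All KO livers were below all WT livers, a separation in this direction that 1.82% of all genes had. Its log2 fold change was -0.40 ± 0.11 SE (edgeR adjusted p = 0.786). Saa3, expressed mainly outside hepatocytes, had 5.65, 3.17, 6.43, 3.11 and 3.70 CPM in WT livers and 7.12, 3.74 and 4.22 CPM in Rbfox2 KO (0.19 ± 0.30 SE, and -0.15 without Rbfox2 KO 1), with overlapping groups. The summed level of 10 Kupffer cell markers was 293 to 339 CPM in WT livers and 411, 304 and 396 CPM in Rbfox2 KO 1 to 3, and its part in the Saa3 values was not tested. Orm3 was near the floor, at 0.207 to 0.808 CPM in WT and 0.354 to 0.615 CPM in Rbfox2 KO.

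Whether the members rose and fell together from mouse to mouse was examined over the 8 livers, with 45 pairs of members and log2 CPM. Pearson's r was positive for 40 pairs, with a median of 0.377. After Benjamini-Hochberg adjustment over the 45 pairs, 1 pair passed: Saa1 and Orm2, with r = 0.950 (exact permutation p = 0.000174, adjusted p = 0.00781) and Spearman's rho = 0.929 (exact permutation p = 0.00223, adjusted p = 0.100). The r of Saa1 and Orm2 was 0.909 without Rbfox2 KO 3 and WT 5, the libraries farthest from the median of Saa1, 0.942 after centring within genotype, and 0.942 to 0.979 when each library was left out in turn. These genes lie on different chromosomes, 7 and 4. Saa1 and Saa2 had r = 0.900 (exact permutation p = 0.00265, adjusted p = 0.0597; rho = 0.857, exact permutation p = 0.0107, adjusted p = 0.161; r = 0.838 without the same libraries). The part of shared sequence in this r was not tested. Hpx and Lcn2 had r = 0.879 (exact permutation p = 0.00489, adjusted p = 0.0733) and rho = 0.905 (exact permutation p = 0.00456, adjusted p = 0.103). Their r was 0.702 without Rbfox2 KO 1. Without both Rbfox2 KO 1 and WT 5, the libraries farthest from the median of Hpx, it was 0.931. Saa1 had an r of 0.132 to 0.541 with the other 7 members, where the exact permutation p adjusted over the pairs was 0.568 or more. After centring within genotype these r were 0.346 to 0.810, with the highest for Apcs (0.238 before centring). Centred r of Apcs was 0.783 with Saa2 and 0.756 with Orm2, and no p was computed for centred values. Centring also raised the r of Apcs with Orm1 (to 0.718), Lcn2 (0.671), Hpx (0.601), Fgb (0.551) and Hp (0.516). It lowered that with Itih4 (to 0.389). Before centring, the r of Saa1 and Apcs was 0.0326 without Rbfox2 KO 2. Centred values were not recomputed with libraries left out. The r of Saa1 and Fgb, 0.541, was -0.19 without WT 5. The lowest r was that of Hpx and Itih4, at -0.43 (rho = -0.31; exact permutation p = 0.317 and 0.462, adjusted 0.648 and 0.819), and it was 0.0960 without Rbfox2 KO 1. The points of every pair share their libraries and scaling factors.

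**Figure D4:**
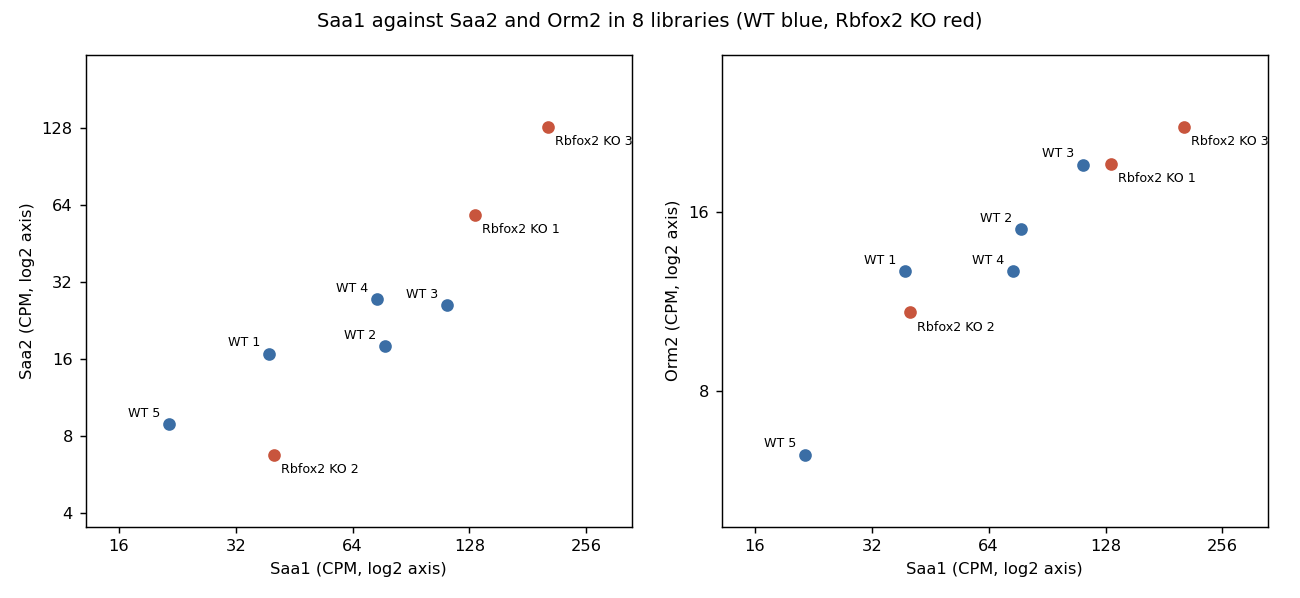
CPM of Saa1 (x axis, log2 scale) against Saa2 and Orm2 (y axes, log2 scale) in the 8 livers, WT in blue and Rbfox2 KO in red. Both pairs run from WT 5 or Rbfox2 KO 2 at the low end to Rbfox2 KO 3 at the high end, with r = 0.900 for Saa2 and r = 0.950 for Orm2.

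The level of a liver relative to the others was summarised as the mean z score of the 10 members. It was highest in Rbfox2 KO 1 (0.62), WT 4 (0.60) and Rbfox2 KO 3 (0.53), intermediate in WT 2 (0.27), WT 3 (0.08) and WT 1 (-0.33), and lowest in Rbfox2 KO 2 (-0.66) and WT 5 (-1.12). Each genotype thus had livers near both ends. Different genes led in the 3 high livers: Hpx and Lcn2 had the highest z scores in Rbfox2 KO 1, Hp, Itih4 and Apcs in WT 4, and Saa1, Saa2 and Orm2 in Rbfox2 KO 3. Of 14644 other tested genes, those whose log2 CPM was most like this score over the 8 libraries were Gtf2h2 (r = 0.927), Apbb1 (r = 0.916), Tmem87a (r = 0.914), Snx2 (r = 0.901) and Mgat2 (r = 0.895). They were picked as the highest of many. Gtf2h2 ran from 6.77 to 7.94 CPM and Snx2 from 34.1 to 37.2 CPM over the 8 livers, and Apbb1, a low gene, from 0.237 to 0.627 CPM.

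**Figure D5:**
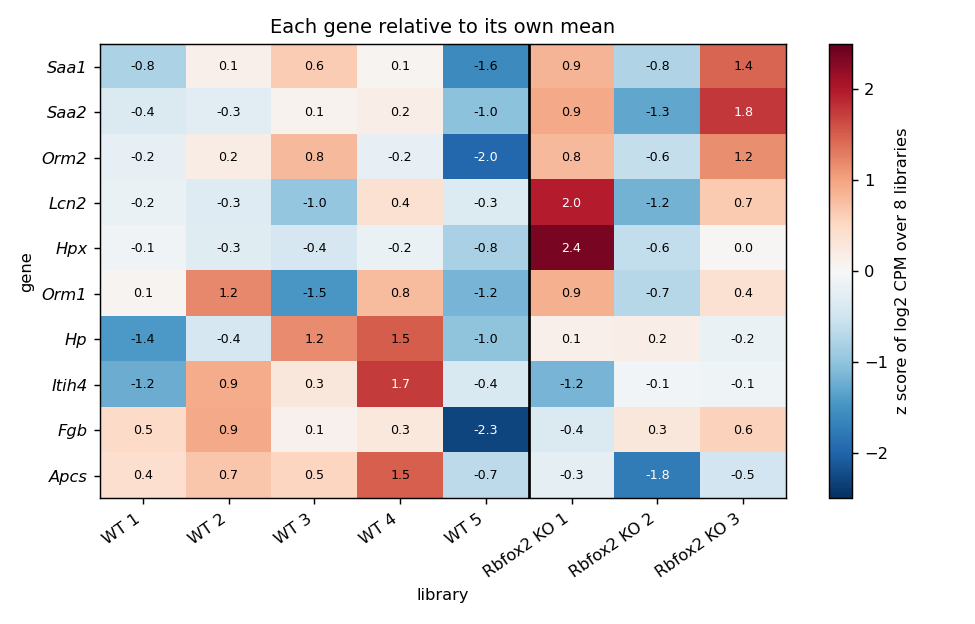
Level of each gene (rows) in each liver (columns) as the z score of log2 CPM over the 8 libraries, red for high and blue for low. Genotypes are parted by the black line. WT 5 (mean z -1.12) and Rbfox2 KO 2 (mean z -0.66) have the lowest mean z scores, followed by WT 1 (mean z -0.33).

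Among the signals that act on these genes, transcripts of the ligands were scarce. Il6 was at no more than 0.0786 CPM and Tnf at no more than 0.408 CPM, and 6 of 8 cytokine genes were too low to test. Il1b had 1.92, 1.65, 0.632, 1.01 and 1.77 CPM in WT livers and 1.91, 2.44 and 0.783 CPM in Rbfox2 KO, with no separation (0.28 ± 0.42 SE), and Il1a had a log2 fold change of 0.14 ± 0.28 SE. Of 32 cytokine, receptor and signal genes, 26 were tested and none was called in either direction, nor did any have an unadjusted edgeR p under 0.05. The interleukin 6 receptor Il6ra and its partner Il6st (gp130) were at 20.8 to 53.5 CPM and 57.6 to 91.9 CPM in WT, ranges that held all KO values. Stat3, its transcription factor, and Socs3, its feedback inhibitor, had log2 fold changes of -0.07 ± 0.12 SE and -0.07 ± 0.21 SE. The receptors with the smallest p were Tnfrsf1a (0.13 ± 0.10 SE), Osmr (0.22 ± 0.26 SE) and Il1r1 (-0.29 ± 0.46 SE). The NF-kB inhibitor Nfkbia had a log2 fold change of 0.15 ± 0.11 SE.

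Cebpd encodes C/EBP delta, a transcription factor that rises in the acute phase. It had 5.69, 5.49, 6.11, 5.56 and 5.62 CPM in WT livers and 9.22, 4.68 and 9.12 CPM in Rbfox2 KO. The WT livers were close together, Rbfox2 KO 1 and 3 were above all of them and Rbfox2 KO 2 was below. Cebpd had a log2 fold change of 0.43 ± 0.20 SE (edgeR adjusted p = 0.99997), 0.28 without Rbfox2 KO 1 and 0.69 without Rbfox2 KO 2. Among the WT livers, Cebpd ran from 5.49 to 6.11 CPM and Saa1 from 21.5 to 112 CPM. A relation between Cebpd and the Saa genes was not tested. Cebpb was at 60.9 to 73.3 CPM in WT livers and 74.1, 61.2 and 83.0 CPM in Rbfox2 KO (0.11 ± 0.11 SE).

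The rest of the acute phase programme was described with lists of other genes. Of 19 other positive acute phase genes, 18 were tested, none was called or had an unadjusted edgeR p under 0.05, and the median log2 fold change was -0.03. The log2 fold change was positive for 8 and negative for 10. The largest in size were negative, those of Mt2 (-1.09 ± 0.69 SE) and Mt1 (-0.76 ± 0.61 SE). Both were highest in WT 1 (121 CPM of Mt2 and 201 CPM of Mt1). The smallest p were those of the ferroxidase Cp (486 to 642 CPM in WT, 735, 625 and 685 CPM in Rbfox2 KO, 0.22 ± 0.12 SE), the iron hormone Hamp (362 to 853 CPM in WT, 1107, 745 and 776 CPM in Rbfox2 KO, 0.42 ± 0.25 SE) and the interleukin 1 antagonist Il1rn (0.58 ± 0.35 SE). Without Rbfox2 KO 1 these values were 0.15 for Cp, 0.21 for Hamp and -0.06 for Il1rn. Fga and Fgg, the partner chains of Fgb, had log2 fold changes of -0.06 ± 0.14 SE and -0.03 ± 0.13 SE, close to the 0.03 of Fgb. Of 8 negative acute phase genes, all tested, none was called or had an unadjusted p under 0.05, and the median was 0.05. Igf1 (0.17 ± 0.14 SE), Serpina6 (-0.09 ± 0.15 SE) and Trf (0.09 ± 0.16 SE) had the smallest p. Of 6 genes that bind or clear the member proteins and their cargo, none was called and 1, Hmox1, had an unadjusted edgeR p under 0.05. Hmox1, which degrades heme, had 15.4, 14.4, 15.9, 15.3 and 17.3 CPM in WT livers and 29.9, 16.3 and 18.5 CPM in Rbfox2 KO, so that it was highest in Rbfox2 KO 1, as Hpx was (0.46 ± 0.17 SE, edgeR adjusted p = 0.954). Without Rbfox2 KO 1 the log2 fold change of Hmox1 was 0.14. Lrp1, the receptor for the heme-hemopexin complex (-0.16 ± 0.12 SE), Cd163, the receptor for haemoglobin-haptoglobin (-0.40 ± 0.40 SE), and Scarb1, which takes up high-density lipoprotein cholesterol and binds serum amyloid A (0.02 ± 0.13 SE), had overlapping groups. The counts cover whole genes. They would not show the shift between Scarb1 splice isoforms that the study reports by PCR in knockout livers.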

How the data were processed

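Poly(A)-selected RNA from 8 fructose-fed livers (5 WT, 3 Rbfox2 KO, grouped by the genotype labels) was sequenced with paired-end reads. The deposited values are raw counts per Ensembl gene. The authors used TopHat2 for strand-specific alignment to GRCm38 and featureCounts for counting. The submitters' notes list TopHat2 2.0.11 and CASAVA 1.8.4. The strand setting of the counting and the treatment of multi-mapping reads are not given in the sources used here, so near-identical genes (Saa1 and Saa2, Orm1 and Orm2) are uncertain. Symbols, positions and transcript lengths came from GENCODE M21 of the same build, which named 45229 of 46078 genes, and 0 sample columns were left without a sample.

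Genes were filtered with filterByExpr, leaving 14654, and scaled by TMM. Genotypes were compared with edgeR 4.0.16 in R 4.3.3 (quasi-likelihood test, robust) over all 8 libraries, with Benjamini-Hochberg adjustment over all tested genes at 0.05. Log2 CPM used a prior count of 2. Correlations were tested by all 40320 permutations of 8 libraries, two-sided. Sequences were taken from RefSeq tables of GRCm38.p6, which held no window for Hp and Orm1. No source says that the mice came from separate litters or cages, so p-values measure only the spread between these libraries. A floor of 3 counts covers counting error only.

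Named were all 10 members, the paralogues, Rbfox2, chosen pathway genes, the 3 genes with the smallest p of each other list and the 5 genes most like the members' mean z score. A listed gene and a planned motif are not reported here. Fga, Fgg, Mt1, Mt2, the single hepatocyte and neutrophil markers and the pair Hpx and Lcn2 were named after their values were seen. The members and lists were chosen with earlier results of these data known. Alternatives were other scalings, no filter, DESeq2 1.42.0, limma-voom (limma 3.58.1) with and without quality weights, a non-robust fit, a replicate block, and leaving out libraries. Merging of near-identical pairs and the all-exon length were chosen after seeing the data. The procedure was tested on simulated counts of 14433 genes for this comparison. Of 100 genes with a true log2 change of 1, edgeR recovered 62 and DESeq2 73. Of 100 with a true change of 2, they recovered 91 and 93. False calls numbered 14 of 167 for edgeR and 35 of 201 for DESeq2. Simulated counts were drawn gene by gene, so a library that stood apart over many genes, as Rbfox2 KO 1 did, was not simulated. These recoveries may therefore exceed those in the data. There edgeR called 0 genes, and Rbfox2, at a log2 fold change of -1.03, had an edgeR adjusted p of 0.328.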

Additional observations from a re-analysis of the deposited data

Results flagged for a closer look

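Among 46 sets of 5 WT values examined (member and named gene levels and marker sums), 2 had a library far from the other 4 by its gap relative to the range, where chance gives about 1 in 20, or 2.3 sets. Mt1 and Mt2 were not among these sets. Fgb, the fibrinogen beta chain, was at 1857 CPM in WT 5, against 2355 to 2556 CPM in the other WT livers, and without WT 5 its log2 fold change was -0.04 in place of 0.03. WT 5 was also the lowest WT liver for Saa1, Saa2, Hpx, Orm2 and Apcs. The 12 pancreatic exocrine genes summed to 17.2 CPM in WT 1, against 4.78 to 5.29 CPM in the other WT livers. Groups of 3, such as Rbfox2 KO, were not examined in this way.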

How the results depend on the processing

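No member was called under any of 18 other settings. The smallest edgeR adjusted p of a member was 0.325, for Saa2 when Rbfox2 KO 2 was left out. Counts of called genes over the whole table moved from 0 to 6 with no filter (2 higher, 4 lower) and to 59 with DESeq2 (22 higher, 37 lower), and Rbfox2 passed with DESeq2 (-1.03, adjusted p = 0.0019). The fit with a replicate block called no member either, and gave log2 fold changes of 0.59 for Saa1 and 1.06 for Saa2. It changed no call. Mice of both groups carry the numbers 1 to 3, which the labels do not link to a litter or batch. Deviations from the group means correlated at 0.163, 0.0484 and 0.170 in same-numbered libraries, and no Rbfox2 KO library correlated best with the WT library of its own number, so the numbers were not taken as a pairing.

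Of 36 genes, 14 changed sign under a setting other than leaving out 1 library. Hp gave -0.00346 with DESeq2 size factors and with DESeq2, -0.0610 with quality weights and -0.0602 without the 2 libraries highest in pancreatic genes (Rbfox2 KO 1 and WT 1). With quality weights the values were -0.12 for Orm1, -0.12 for Il6ra, -0.0774 for Scarb1 and -0.0123 for Osmr. Without those 2 libraries they were -0.0433 for Orm1, -0.0437 for Saa3, 0.11 for Orm3, -0.0419 for Il6ra, -0.0125 for Scarb1 and -0.11 for Osmr. With the replicate block they were -0.0494 for Fgb, -0.0157 for Saa3, 0.0876 for Il6st, 0.00112 for Socs3, -0.0250 for Scarb1, -0.10 for Il1a and 0.16 for Il1r1. With library totals, which moved the median of all genes to 0.12, they were 0.0216 for Il6st, 0.0498 for Stat3, 0.0484 for Socs3 and 0.0221 for Serpina6. Leaving out 1 library at a time gave -0.0525 to 0.0593 for Hp, -0.0481 to 0.19 for Orm1, -0.0396 to 0.067 for Fgb, -0.15 to 0.37 for Saa3, -0.45 to 0.10 for Orm3, -0.24 to 0.23 for Il6ra, -0.16 to 0.0101 for Il6st, -0.13 to 0.00089 for Stat3, -0.20 to 0.10 for Socs3, -0.075 to 0.14 for Scarb1, -0.061 to 0.63 for Il1b, -0.065 to 0.87 for Il1rn and -0.19 to 0.00536 for Serpina6. The causes were not tested. Detection at the spread of the Saa genes was not tested.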
